A study of Mus musculus with 5 samples.

Results

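Dazl and Boll are the mouse genes of the DAZ (deleted in azoospermia) family, and Pcgf6 ChIP-seq signal was measured over both in mouse embryonic stem cells (ESCs). They were chosen by name, as 2 of 22359 protein-coding genes with a promoter in the annotation, from the depth of every library within 2 kb of each annotated start and over the gene body, compared with input. That comparison is therefore given as a description and carries no test. The study had 5 libraries, all from CCE cells, an established mouse ESC line kept under 15 passages in medium with 15% serum and 1000 U/ml leukemia inhibitory factor (LIF). The chromatin of all 5 was cross-linked with paraformaldehyde together with disuccinimidyl glutarate, a protein cross-linker. Antibody to Pcgf6 from Santa Cruz was used for 2 libraries and antibody from Abcam for another 2, and 1 library was input DNA without antibody. No library without Pcgf6 and no unrelated antibody was analysed here, and RNA was not measured in these samples, so the ESC label could not be checked against marker genes.

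DAZ family proteins bind RNA through an RNA recognition motif and carry the DAZ repeat, through which they meet partner proteins, and they are known for promoting translation of germ cell transcripts. Dazl acts in primordial germ cells and in later germ cells of both sexes, whereas Boll, the mouse Boule, acts in male meiotic and post-meiotic germ cells. Neither is a gene of pluripotency. Pcgf6 is the PCGF subunit of a variant Polycomb repressive complex 1 that also holds Mga with Max, which bind the E-box, and E2f6 with a Tfdp protein, which bind E2F-type sites, and this complex is known for keeping germ cell genes silent in ESCs.

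The depth of the deposited libraries was resolved into 22801077 input fragments and between 2289605 and 2849850 fragments per ChIP library. The libraries labelled as replicates of an antibody held the same fragments: 88.2% of Santa Cruz and 88.5% of Abcam replicate 1 fragments recurred in replicate 2 at a fixed shift of 1 or 15 positions. Counts in 10-kb windows also differed between the replicates of an antibody by less than the sampling noise (chi-square per degree of freedom 0.121 and 0.132, against 1.02 between the antibodies). Each antibody was therefore counted as 1 sample, of 2561355 fragments for Santa Cruz and 3157168 for Abcam, and no SD can be given. Santa Cruz and Abcam fragments started at the same position more often than fragments 30 to 39 bp apart did (1.09% against 0.233% of Santa Cruz fragments), and within 2 kb of the main start this was the case for 0 Dazl and 2 Boll fragments. In what follows the ChIP/input ratio is the share of a ChIP library's fragments in a window divided by the share of input fragments there, and its 95% interval is exact (Clopper-Pearson) and covers counting error only.

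Dazl (ENSMUSG00000010592.7) lies on the minus strand of chr17:50418719-50432924 (mm9) and has 2 annotated starts, at 50432924 (the main start used here) and 707 bp into the gene. Boll (ENSMUSG00000025977.9) lies on the minus strand of chr1:55305502-55420313 and has 6 starts. Those numbered 1 to 4 lie within 762 bp of its main start at 55420313, while start 5 lies 2.728 kb and start 6 lies 63.291 kb into the gene. Both Dazl starts, and starts 1 to 5 of Boll, have 1 protein-coding transcript each. Each main start is therefore the most upstream of tied starts. The 300 bases under the highest point of both antibodies are shown for each gene because the report turns on them. They are from the mm9 reference, read 5′ to 3′ along the gene, with CACGTG (the E-box) and GCGGGA (an E2F6-type site, TCCCGC when on the other strand) in capitals. The Dazl window is chr17:50432325-50432624 and the Boll window chr1:55419688-55419987, both on the minus strand.
Dazl: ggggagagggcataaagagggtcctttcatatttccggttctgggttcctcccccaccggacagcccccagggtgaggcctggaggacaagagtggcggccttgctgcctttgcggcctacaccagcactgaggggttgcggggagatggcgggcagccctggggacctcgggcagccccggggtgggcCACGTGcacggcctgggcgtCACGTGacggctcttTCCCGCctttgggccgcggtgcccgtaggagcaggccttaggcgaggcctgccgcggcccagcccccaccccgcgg
Boll: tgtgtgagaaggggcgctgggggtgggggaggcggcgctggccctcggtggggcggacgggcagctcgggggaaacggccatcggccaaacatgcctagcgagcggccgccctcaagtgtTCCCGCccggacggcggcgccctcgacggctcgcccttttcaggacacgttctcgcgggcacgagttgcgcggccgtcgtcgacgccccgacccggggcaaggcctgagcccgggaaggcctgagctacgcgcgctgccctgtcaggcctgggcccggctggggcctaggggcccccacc
Both windows lay in introns, outside every annotated exon and UTR of their gene. The Dazl window held the E-box letters at positions 190 and 210 from its 5′ end and the E2F6-type letters at 225, so the E-boxes were centred 41.5 and 61.5 bp from the highest point. They lie 491.5 and 511.5 bp into the gene. Abcam alone was highest near them, at 452 bp, whereas Santa Cruz alone was highest farther away, at 305 bp (244 to 365 bp). In Boll no E-box was present in the window, and its E2F6-type letters at position 121 were centred 27.5 bp from the highest point. Outside the window, E2F6-type letters also occurred among the clustered Boll starts, 349.5 bp upstream and 293.5 bp downstream of that point. Of all promoters, 4.58% held an E-box in a window of that length placed 450 bp into the gene as in Dazl, 0.210% held at least 2 and 1.10% held both kinds of letters. The E2F6-type letters were present in 18.3% of such windows at the Dazl offset and in 17.4% of those placed 476 bp into the gene as in Boll. Of the 616 promoters with ratios of at least 2 with both antibodies, 68 and 58 (9.42%) held them at these offsets, a lower share than over all promoters, and 33 (5.36%) held the E-box at the Dazl offset. The Dazl letters also lie in the window from 250 bp before to 50 bp after its second start. Over all promoters, windows placed so at the main start held an E-box in 7.70% and at least 2 in 0.707%. They held both kinds of letters in 2.46% and the E2F6-type letters in 24.7%. Among the 616 promoters, 10.6% held the E-box and 16.1% the E2F6-type letters there. Of these 616 promoters, 398 had under 30 input fragments and 525 had under 65% G and C around the main start. The shares were not compared at matched coverage or base composition. Base composition was similar in the members, with 70.7% G and C and 22 CpG in the Dazl window and 75.0% and 37 CpG in the Boll window, against a median of 53.0% and 52.7% G and C over all genes at these offsets.

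Pcgf6 ChIP depth was higher than input over the start of Dazl with both antibodies. Within 2 kb of the main start the summed depth per kb, in parts per 1000000 of each library's total, was 2.45 and 2.33 in Santa Cruz replicates 1 and 2, 1.90 and 1.84 in Abcam replicates 1 and 2, and 0.765 in input. An even spread over the genome would give 0.377, so input itself was above that level here, and each of the ChIP libraries was higher still. In fragments, Santa Cruz held 24, Abcam 25 and input 66, which gave ChIP/input ratios of 3.17 (95% interval 1.90 to 5.12) and 2.68 (1.62 to 4.30). At the second Dazl start, in the first intron of the longer transcript, the window of 0.5 kb either side held 14 Santa Cruz, 12 Abcam and 19 input fragments, with ratios of 6.41 (2.98 to 13.5) and 4.46 (1.97 to 9.68). The same window at the main start gave 3.55 (1.59 to 7.39) and 4.19 (2.11 to 8.05), so the starts did not differ beyond their counting error, and their windows overlap.

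Boll showed the higher ratios of the pair, with intervals that overlapped those of Dazl. Summed depth per kb within 2 kb of its main start was 3.17 and 2.83 in Santa Cruz replicates 1 and 2, 3.40 and 3.21 in Abcam replicates 1 and 2, and 0.643 in input. Here too each ChIP library lay above the single input library, with the replicates of an antibody counting as 1 sample. Input stood at a level close to that of Dazl. The fragments numbered 31 with Santa Cruz, 36 with Abcam and 58 in input, for ratios of 4.65 (2.91 to 7.32) and 4.38 (2.81 to 6.76).

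**Figure D1:**
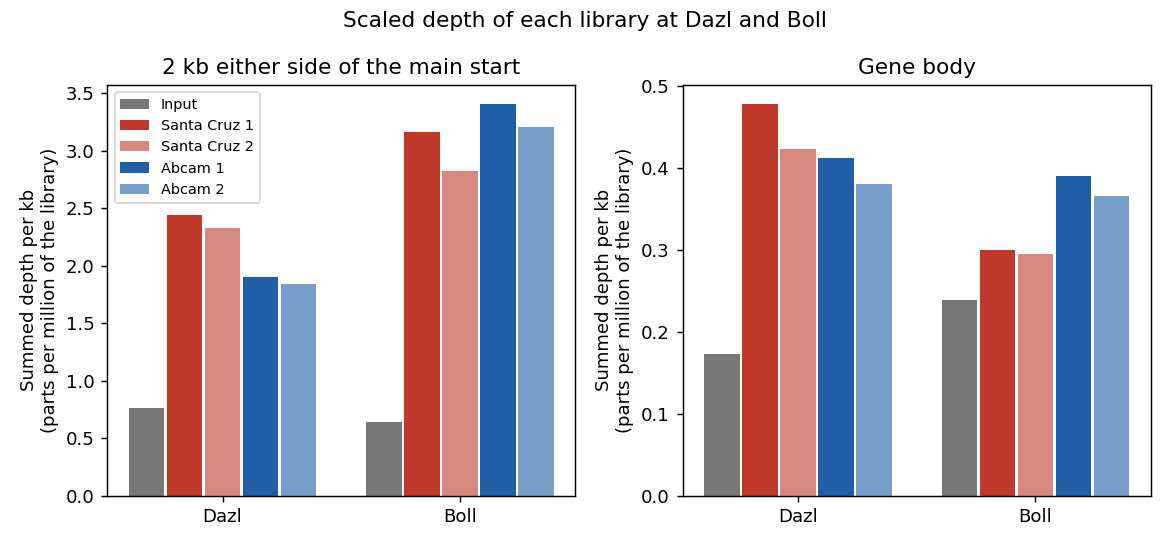
Summed depth per kb (parts per 1000000 of each library's total depth) at Dazl and Boll, within 2 kb of the main start on the left and over the gene body on the right, with 1 bar for each of the 5 libraries. Near the start every ChIP library stands above input, at 1.84 or more against 0.765 in Dazl and 2.83 or more against 0.643 in Boll, and the scale of the gene body is several times lower.

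The signal of Boll was highest between its clustered starts. With 0.5 kb either side, start 2 held 24 Santa Cruz, 23 Abcam and 16 input fragments, for ratios of 13.1 (6.66 to 26.3) and 10.2 (5.14 to 20.6), the highest of the 8 starts of the pair with either antibody. Starts 3 and 4 lie 19 bp apart and share almost all fragments of their windows, with ratios of 7.31 and 7.03 for Santa Cruz and 6.78 and 6.79 for Abcam. The main start had 7.84 (3.91 to 15.6) and 6.0 (2.95 to 12.1). The intervals of these starts overlapped, so their order was not resolved.

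Starts 5 and 6 of Boll stood apart from the cluster. At start 5 the window of 0.5 kb either side held no fragment of either antibody and 3 of input, where a count of 3 ChIP fragments would have given a ratio of 8.71 for Santa Cruz and 7.06 for Abcam, so a ratio below these could not be detected. Within 2 kb of it, Santa Cruz had 3 fragments, Abcam 12 and input 29, and that window reaches into the start cluster. At start 6, which opens a transcript deep in the gene, 1 Santa Cruz, 5 Abcam and 14 input fragments lay within 2 kb, for ratios of 0.622 (0.0147 to 4.09) and 2.52 (0.711 to 7.41). Both intervals included 1.

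**Figure D2:**
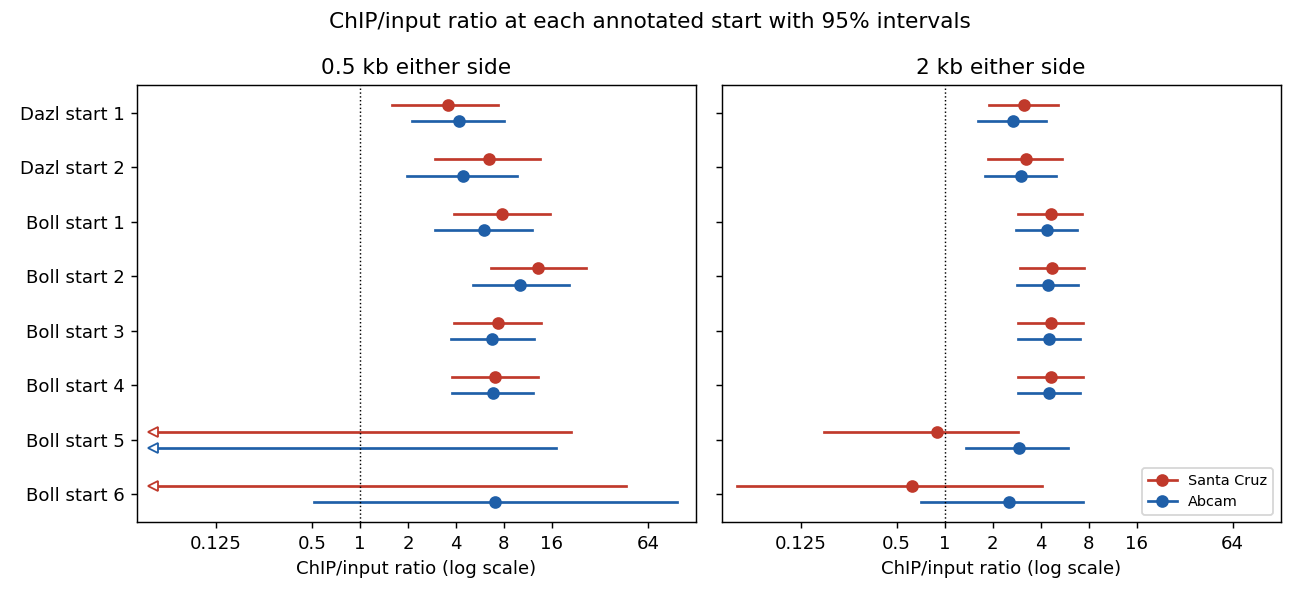
ChIP/input ratio (log scale) at the 2 starts of Dazl and the 6 starts of Boll, numbered from the upstream end, for 0.5 kb and 2 kb either side, with points for the ratio and lines for the 95% interval. Open triangles at the left edge mark a ratio of 0. The starts of Dazl and starts 1 to 4 of Boll lie to the right of 1 with both antibodies, whereas the intervals of starts 5 and 6 cross 1, apart from Abcam within 2 kb of start 5 at 2.92 (1.36 to 5.91).

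In both genes the ChIP depth was highest downstream of the main start, although Abcam at Dazl had 13 fragments in the 2 kb upstream and 12 in the 2 kb downstream. With the antibodies added together, scaled to their totals, the highest point lay 450 bp into Dazl and 476 bp into Boll. In Dazl this point is 257 bp upstream of the second start, in an intron of 1 of 2 transcripts. The antibodies peaked there separately at 305 bp (Santa Cruz, depth 9) and 452 bp (Abcam, depth 11). In Boll the point is 326 bp downstream of start 2 and 267 bp upstream of start 3, intronic to 3 of 8 transcripts, and the antibodies peaked at 449 bp (Santa Cruz, depth 16) and 504 bp (Abcam, depth 14). These distances are within the length of 1 extended fragment of 300 bp, and the antibodies' positions within a gene did not differ by more than that.

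The ratio near this point is given as a description, since the point is the maximum of the same depth. Within 500 bp of it Boll had 22 Santa Cruz, 24 Abcam and 19 input fragments, for ratios of 10.1 (5.21 to 19.7) and 8.92 (4.68 to 17.2). From 0.5 to 2 kb away, on both sides together, the ratios were 1.83 (0.739 to 3.99) and 2.23 (1.06 to 4.36). Dazl had 15, 12 and 25 fragments within 500 bp, for ratios of 5.22 (2.56 to 10.3) and 3.39 (1.55 to 7.0), and 2.05 (0.819 to 4.51) and 2.49 (1.18 to 4.93) farther out. At Dazl the intervals of the near and the far ratio overlapped with either antibody. For Abcam they overlapped widely, and 13 of its 25 fragments lay upstream of the main start.

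**Figure D3:**
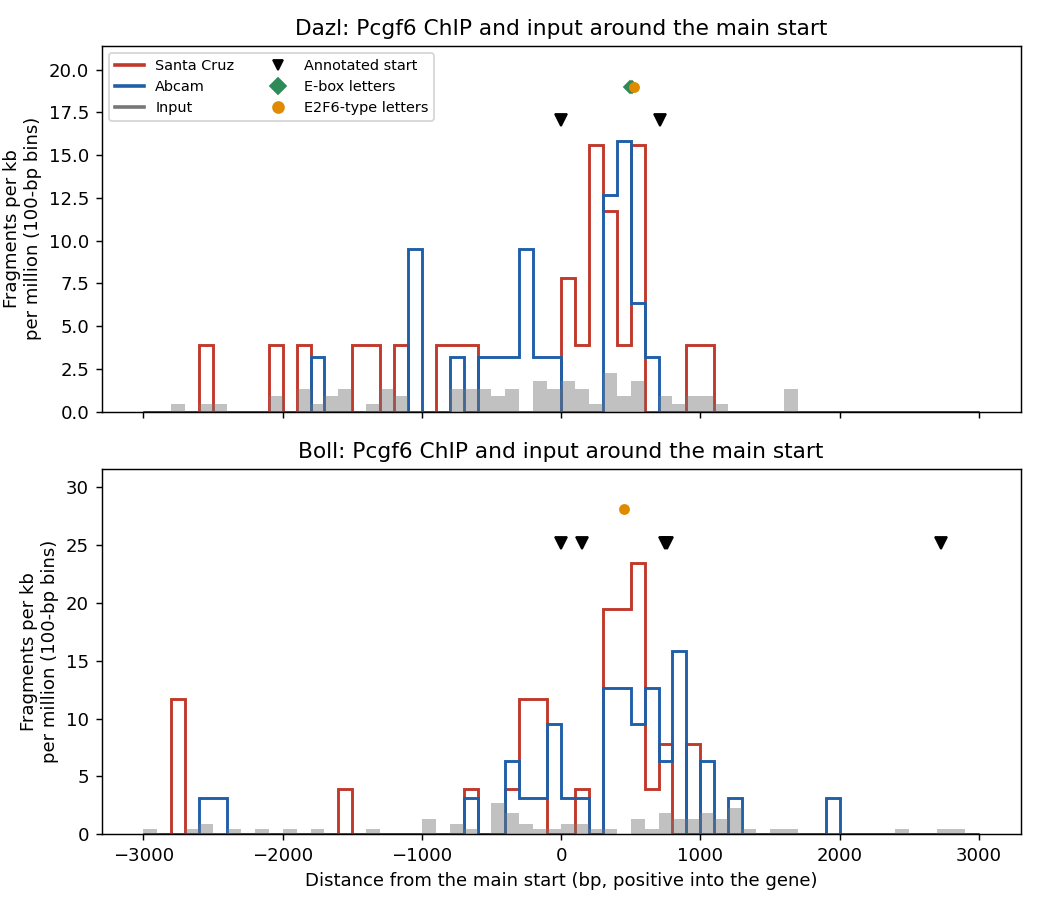
Fragments per kb and per 1000000 fragments of the library, counted in 100-bp bins at the middle of each fragment, from 3000 bp upstream to 3000 bp downstream of the main start of Dazl and Boll, for Santa Cruz, Abcam and input (grey fill). Black triangles mark annotated starts, diamonds E-box letters and circles E2F6-type letters of the 300-bp windows printed above. The highest point of both antibodies together lies at 450 bp in Dazl and 476 bp in Boll. The letters drawn lie within 76.5 bp of these points, but only letters in the 300-bp windows centred on them are drawn. Santa Cruz alone was highest at 305 bp in Dazl, farther from the Dazl letters. E2F6-type letters of Boll outside its window are left out.

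Away from the starts the ratios of the gene bodies were lower, though on few fragments in Dazl. Over the whole Dazl gene of 14.206 kb, 17 Santa Cruz, 18 Abcam and 54 input fragments gave 2.74 (1.49 to 4.80) and 2.35 (1.3 to 4.08). Without the first 2 kb, Santa Cruz had 0 fragments against 24 of input, where 3 fragments would have given a ratio of 1.09, and Abcam had 6, for 1.77 (0.590 to 4.43). The ratio of the Dazl gene body with Santa Cruz thus came entirely from its first 2 kb. Over the 114.812 kb of Boll, 93 Santa Cruz, 132 Abcam and 614 input fragments gave 1.32 (1.05 to 1.64) and 1.52 (1.25 to 1.84), and without the first 2 kb 1.07 (0.822 to 1.37) and 1.27 (1.02 to 1.57).

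In bins of 5 kb the bin that opens each gene was high with both antibodies. It had ratios of 4.35 (2.28 to 8.01) and 2.91 (1.44 to 5.56) in Dazl and 4.91 (2.77 to 8.49) and 5.25 (3.13 to 8.71) in Boll, for Santa Cruz and Abcam. The median of the other bins, which reach 25 kb beyond the gene on either side, was 1.17 and 1.29 over 12 bins of Dazl and 1.25 and 1.28 over 32 bins of Boll. The bin just upstream of the Boll main start also had an interval above 1 with both antibodies, at 3.60 (1.67 to 7.28) and 2.44 (1.06 to 5.14). Among the other bins the interval lay above 1 in 0 of Dazl and 2 of Boll with Santa Cruz and in 3 of Dazl and 5 of Boll with Abcam. These include, with Abcam, the bin just upstream of Dazl at 2.40 (1.27 to 4.32) and a bin from 80 to 85 kb into Boll at 2.55 (1.24 to 4.92). The highest values rest on few fragments, such as 8.71 for Santa Cruz from 1 fragment over 1 of input upstream of Boll, and 4.35 (1.56 to 11.3) for Abcam from 8 over 13 of input downstream of Dazl. The bin just past the end of Boll, with 9 input fragments, had 4.84 (1.27 to 16.1) with Santa Cruz, close to its opening bin. Abcam gave 3.14 (0.706 to 11.2) there.

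**Figure D4:**
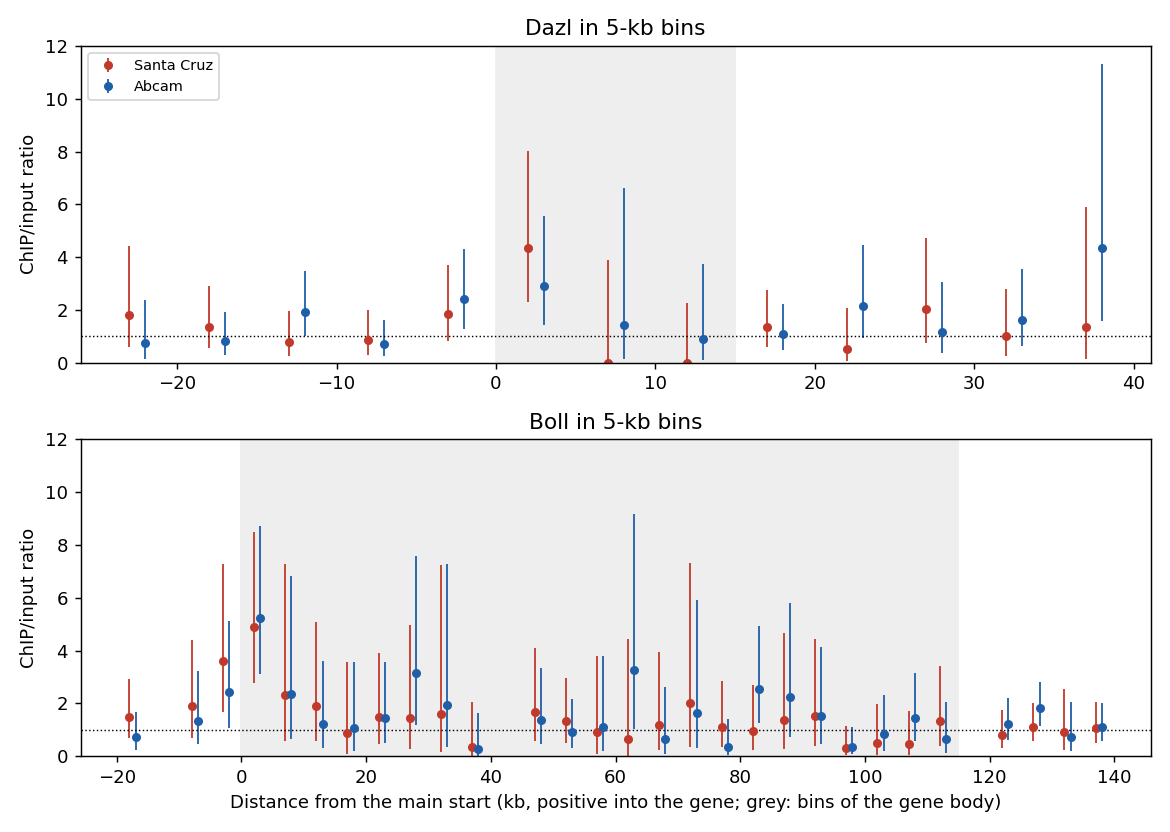
ChIP/input ratio with 95% interval in 5-kb bins from 25 kb upstream to 25 kb downstream of Dazl and Boll, for bins with at least 10 input fragments, with the gene body shaded and a dotted line at 1. The bin that opens each gene, at 4.35 and 2.91 in Dazl and 4.91 and 5.25 in Boll, is followed by bins scattered around a median of 1.17 to 1.29. The bin just past the end of Boll, at 4.84 with Santa Cruz over 9 input fragments, is not drawn.

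The antibodies could be compared with each other by their fragment counts in the same windows. The choice of the genes did not compare the antibodies directly, but it used their depth in these windows against input. Genes high with both antibodies are apt to be alike in both, so the test is no independent evidence that the antibodies match here. At the main start of Dazl, Abcam over Santa Cruz was 0.845 (0.463 to 1.55), from 25 and 24 fragments, with an adjusted p of 1 in a two-sided exact binomial test run over all 22359 promoters (unadjusted 0.569). At Boll it was 0.942 (0.567 to 1.58), from 36 and 31 fragments, with an adjusted p of 1 in the same exact test (unadjusted 0.807). No difference between the antibodies was detectable at this depth at either gene, and a 2-fold one would often be missed, since the same test called 28.0% of promoters changed 2-fold in simulated data with at least 40 pooled fragments. Over all promoters the test called 2, or 0.00894%, and it compares the 2 joined libraries, not conditions.

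Among all promoters the members stood in the upper tail. The median promoter had 6 Santa Cruz, 9 Abcam and 69 input fragments within 2 kb of its main start, for median ratios of 0.898 and 0.942. Among them 6.89% passed a ratio of 2 for Santa Cruz, 6.68% for Abcam and 2.76% for both antibodies, and both members are among the last group, as the choice of the genes already implied. A ratio as high as that of Dazl was found at 2.58% of promoters with Santa Cruz and 3.32% with Abcam, and one as high as that of Boll at 1.19% and 1.16%. Of the 616 promoters past 2-fold with both antibodies, 398 had under 30 input fragments. Among the 18050 promoters with at least 30 input fragments, 2.53% were past 2-fold for Santa Cruz, 2.9% for Abcam and 1.21% for both. Of these promoters, 59 had ratios at least as high as Dazl with both antibodies and 20 at least as high as Boll, each count including the gene itself. Both promoters are rich in G and C (69.7% in Dazl and 77.3% in Boll from 250 bp before to 50 bp after the main start), and of the 4946 promoters with at least 65% the median ratios were 0.895 and 0.947, with 1.84% past 2-fold with both antibodies.

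The promoters whose pair of ratios was nearest to a member, by Euclidean distance of the log2 ratios over 17989 promoters with at least 30 input fragments, lay within 0.127 of Dazl and 0.217 of Boll. Nearest to Dazl were Rpp38, encoding a subunit of RNase P, at 3.0 and 2.68, and Stag3, a cohesin subunit of meiosis, at 3.02 and 2.59. They were followed by Msh4, a meiotic recombination gene, Gas2, and Gpc2, whose start lies beside that of Stag3 so that the pair share most of their fragments. Nearest to Boll were Hsf5, a testis member of the heat shock factor family, at 4.28 and 4.52, and Gm129 at 4.35 and 4.04. Hdac2, a histone deacetylase that is also a subunit of the Pcgf6 complex, followed at 4.29 and 4.05, then Gm4969 and Akap11.

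The nearest protein-coding genes on either side gave the following values. Next to Dazl, the promoter of AY702103 gave a Santa Cruz ratio of 1.55 (0.707 to 3.08) and an Abcam ratio of 0.504 (0.133 to 1.37). Plcl2, 215.9 kb away, had 1.62 (0.658 to 3.49) from 8 Santa Cruz and 4.27 (2.52 to 7.11) from 26 Abcam fragments. Next to Boll, Mars2, a mitochondrial methionyl-tRNA synthetase gene 8.6 kb from the end of Boll, had 0.907 (0.421 to 1.74) and 1.47 (0.861 to 2.40), and Plcl1 had 1.22 (0.625 to 2.18) and 1.06 (0.560 to 1.87). None of these 4 promoters passed 2-fold with both antibodies, Plcl2 was above Dazl with Abcam, and the differences from the members were not tested.

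**Figure D5:**
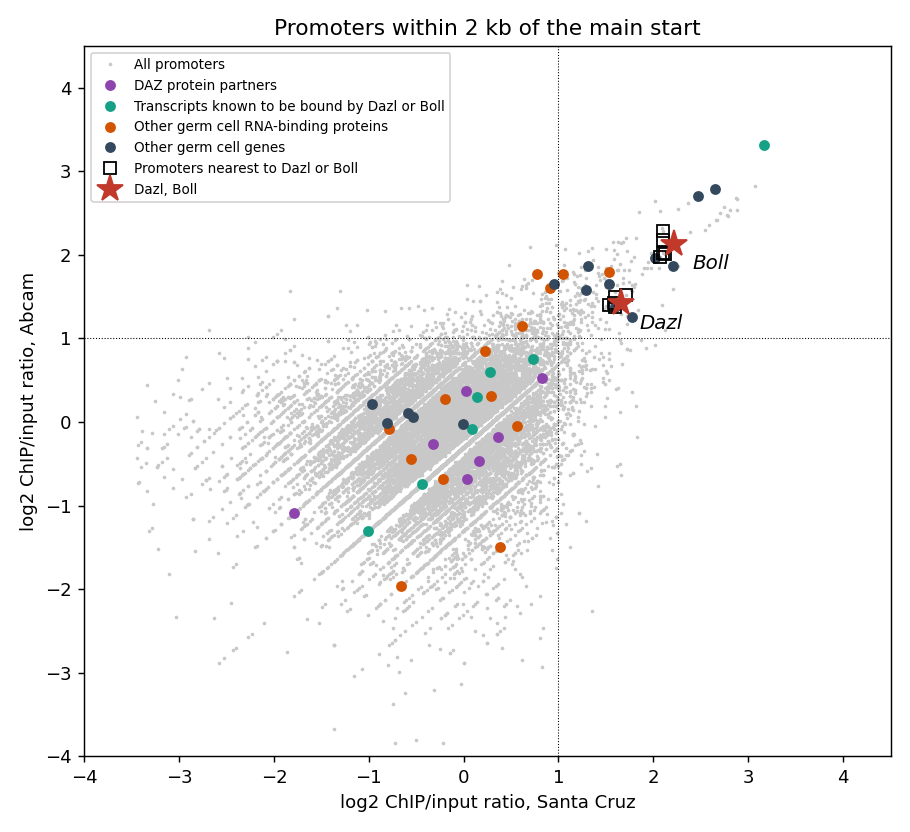
log2 ChIP/input ratio within 2 kb of the main start for Santa Cruz (horizontal) and Abcam (vertical) at 17990 promoters with at least 30 input fragments and at least 1 fragment of each antibody (grey), with Dazl and Boll as stars, the promoters nearest to them as open squares and genes of the lists in colour. Dotted lines mark a ratio of 2. Boll lies at 4.65 and 4.38 and Dazl at 3.17 and 2.68, in the upper tail of the grey cloud with some of the other germ cell genes. Further genes of that list, and the partners of DAZ proteins, lie below a ratio of 2 with both.

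Genes that work with the DAZ proteins were next counted against the 2.76% of promoters past 2-fold with both antibodies. Of 7 genes of partner proteins, 0 passed 2-fold with either antibody, and their medians were 1.02 and 0.836. This list holds Dazap1 and Dazap2, named for binding DAZ proteins, Pum2, which binds RNA with them, Pabpc1, the poly(A)-binding protein, and Dzip1, Dzip1l and Dzip3. Its highest Santa Cruz value was that of Dzip1, at 1.77, where Abcam gave 1.43. Of 7 genes whose transcripts DAZ proteins are known to bind, 1 passed with both antibodies. That was Ddx4, the germ cell helicase Vasa, with 33 Santa Cruz, 45 Abcam and 32 input fragments and ratios of 8.98 (5.35 to 15.1) and 9.93 (6.17 to 16.1). Sycp3, of the synaptonemal complex, had 1.66 and 1.68, and the medians of this list were 1.11 and 1.23.

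Among 15 other RNA-binding proteins of germ cells, 3 passed for Santa Cruz, 6 for Abcam and 3 for both, beside medians of 1.31 and 1.24. These 3 were Cpeb1, a regulator of poly(A) tails, at 2.06 and 3.42, Piwil2, a PIWI protein that carries piRNAs, at 2.90 and 3.46, and Khdc1a, which rests on 3 input fragments. Mael, of the piRNA pathway, and Rbm46 and Ythdc2, of meiotic RNA regulation, had Abcam ratios of 3.41, 3.05 and 2.22 and Santa Cruz ratios of 1.71, 1.88 and 1.54. The depth at these promoters was too low for the test between the antibodies to tell whether they differed. Of 16 other germ cell genes, 10 passed for Santa Cruz, 11 for Abcam and 10 for both, with medians of 2.69 and 3.06, beside which Dazl (3.17 and 2.68) was close and Boll (4.65 and 4.38) above. Above Boll with both antibodies were Tdrkh, a Tudor protein of the piRNA pathway, at 6.27 and 6.92, Stk31, a germ cell kinase-domain gene, at 5.52 and 6.52, and Taf7l, a germ cell subunit of the TFIID family, at 5.70 and 5.36. Slc25a31, Mov10l1, Tdrd1, Hormad1, Sycp1, Stag3 and Smc1b also passed with both. Other genes of this list passed with neither antibody. They were Tex101 (0.512 and 1.16), Stra8 (0.570 and 0.990), Sohlh1 (0.992 and 0.983), Figla (0.665 and 1.08) and Nobox (0.693 and 1.04). Sohlh2 passed with Abcam only (1.93 and 3.14). Of 15 genes that encode the Pcgf6 complex, 4 passed with both antibodies, namely Mga (3.30 and 4.14), E2f6 (3.53 and 4.58), Tfdp1 (2.23 and 2.54) and Hdac2. The medians of this list were 0.916 and 1.26. These lists were put together with results of these libraries known, so their counts are no independent evidence of enrichment.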

How the data were processed

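The authors sequenced Pcgf6 ChIP and input DNA of CCE cells and aligned the reads with Bowtie 0.1.2.7 to mm9, per the submitters' processing notes. The deposited files hold coverage signal, a whole number of overlapping reads at each position after extension of the reads to 300 bp, neither scaled nor corrected for input. The first position of each covered run is written 1 base low in the deposited rows and was moved. Each rise of the depth was taken as the first base of a fragment and matched to the fall 300 bp later. In simulated data written the same way, 99.0% or more of 200000 fragments over 20000000 bases returned to their exact position, and in the libraries at most 0.0128% of falls had no matching rise. Depth was divided by each file's sum. Replicates that held the same fragments were joined, counting 1 fragment per position. Fragments were assigned by their middle to windows around GENCODE M1 starts on NCBIM37 (mm9). The main start of a gene is that of most of its protein-coding transcripts, the most upstream one on a tie. ChIP/input ratios had exact Clopper-Pearson 95% intervals. Abcam and Santa Cruz were compared at all promoters by an exact two-sided binomial test, adjusted by Benjamini-Hochberg over all promoters, with a threshold of 0.05. In simulated data for that comparison on 22359 promoters, with 200 changed, it called 0% of those changed 2-fold and 48.0% of those changed 4-fold when drawn at any depth, and 28.0% and 100% when drawn with at least 40 pooled fragments. Named genes were the members at every start, the 5 promoters nearest in both ratios, the neighbours on either side and the gene lists. Genes of the lists are named when past 2-fold with both antibodies. Others were added after their values were seen (Dzip1, Sycp3, Mael, Rbm46, Ythdc2, Tex101, Stra8, Sohlh1, Sohlh2, Figla, Nobox). The members and the lists were chosen with earlier results of these data known. A gene of the partner list is not reported here and was left out of its counts. Motifs were counted on both strands with overlaps, as exact letters, and the share of promoters by G and C content was added after seeing the data. Analyses used Python 3.11.15, numpy 2.4.6, scipy 1.17.1 and pandas 2.3.3.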

Additional observations from a re-analysis of the deposited data

How the results depend on the processing

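Of 197 values recomputed under alternatives, 167 kept their direction and stayed within the counting interval of the reported value, on their side of the threshold or, for counts of promoters, within 1.5 times the reported count. Part of this count was given by the design. Replicates of an antibody hold mostly the same fragments, and scaling by the median ratio barely changed the totals, so these alternatives could move the values little. At the main starts the ratios ranged over all settings from 1.90 to 3.68 (Santa Cruz) and 1.78 to 4.19 (Abcam) in Dazl, and from 3.41 to 7.84 and 3.07 to 6.0 in Boll. Leaving out 1 replicate of each antibody gave 3.09 to 3.26 and 2.5 to 2.58 in Dazl, and 4.19 to 4.88 and 4.6 to 4.75 in Boll.

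With 0.5 kb either side, Santa Cruz ratios moved to 6.41 at Dazl start 2, 7.84 at Boll start 1 and 13.1 at Boll start 2, and the Abcam ratio at Boll start 2 to 10.2. There Boll start 5 fell to 0 with both antibodies and start 6 to 0 with Santa Cruz. For 1 kb either side, Santa Cruz was also 0 at both of these starts. Abcam at start 6 then gave 10.6 from 3 fragments over 2 of input, with an interval above 1 (1.21 to 127). With 10 kb either side, Abcam at Boll starts 3 and 4 was 2.76 and Santa Cruz at start 5 was 3.29. Santa Cruz at start 6 ranged from 0 to 0.695 when a replicate was left out, since it rests on 1 fragment. Without the first 2 kb, the Dazl gene body was 0 with Santa Cruz. Abcam over Santa Cruz turned to above 1 at Dazl with 0.5 kb either side (1.18), and at Boll with all fragments as deposited (1.12) and without replicate 1 (0.973 to 1.10 over the replicates left out), with intervals that include 1.

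Promoters that differed between the antibodies in the exact binomial test numbered 2, with 783 at an unadjusted p under 0.05. They numbered 0 with 0.5 kb, 1 with 1 kb and 205 with all fragments as deposited, which counts most fragments more than once. Promoters past 2-fold with Santa Cruz, Abcam and both numbered 2448, 2642 and 941 with 0.5 kb, 791, 700 and 303 with 10 kb, and 457, 524 and 218 with at least 30 input fragments. No cause of these shifts was tested. No paired analysis was possible because the replicates of each antibody hold the same fragments, so the number pairs nothing.

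The limits are 1 library per antibody in effect, a single input, and 24 to 36 ChIP fragments per member, so the intervals span a range of more than 2-fold and cover no variation between cultures.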
